A study of Mus musculus with 10 samples.

Results

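The 40 protein-coding genes described here encode the subunits of voltage-gated sodium channels (Nav) and voltage-gated calcium channels (Cav). They were chosen by symbol, as every protein-coding gene named Scn with a number and a or b, or named Cacna, Cacnb or Cacng, among 78317 genes listed. The pore-forming subunits are 20 genes, 10 for Nav α and 10 for Cav α1, and the auxiliary subunits are 20 genes, 4 for Nav β, 4 for Cav α2δ, 4 for Cav β and 8 of the γ (Cacng) family. Gene expression was measured by RNA sequencing of poly(A)-selected mRNA from 1-mm punches of the medial prefrontal cortex of wild-type mice. The miR-130a group (libraries 13, 14, 15, 17 and 18) came from mice injected with an adeno-associated virus (AAV) for overexpression of miR-130a-3p, a microRNA, and the control group (libraries 3, 4, 5, 7 and 9) from mice given a control AAV. The labels give no age, strain, promoter, dose or time after injection. They do not state whether each library came from 1 mouse, and the error behind each p-value is the variation among libraries, which may be partly technical.

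Voltage-gated sodium channels carry the fast inward current that starts and propagates the action potential. Their α subunit forms the pore and the voltage sensors, and the β subunits are adhesion-like membrane proteins that adjust gating and placement at the axon initial segment. Voltage-gated calcium channels turn depolarization into calcium entry, which drives transmitter release, dendritic signalling and gene regulation. The Cav α1 subunit forms the pore, the intracellular β and the extracellular α2δ subunits help to bring it to the membrane and tune its gating, and most brain γ proteins are better known as transmembrane AMPA receptor regulatory proteins (TARPs). A microRNA lowers mRNAs by pairing its seed, the bases near its 5′ end, with sites that lie mostly in 3′ untranslated regions (UTRs).

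Levels are the authors' TPM, a share of a library's transcripts that is corrected for length, so that genes can be compared with each other. Depth cannot be read from TPM. Fold changes are miR-130a over control on the log2(TPM + 1) scale, on which changes of low genes look smaller than they are. A gene was tested if its mean over the 10 libraries was at least 1 TPM, and it was called if limma's p, adjusted over all 15680 genes tested, was under 0.05. The Mir130a entry was listed at 0 in all 10 libraries, and poly(A) libraries do not capture the mature microRNA, so the overexpression itself could not be checked. The summed markers of excitatory neurons were 2256 to 2760 TPM in miR-130a libraries and 1856 to 3505 TPM in control libraries, and none of the 7 excitatory or 5 inhibitory neuron markers was called. Microglial markers differed, with 5 of 6 called lower and a sum of 411.9 to 591.5 TPM in miR-130a libraries, against 1033 to 1931 TPM in control libraries. Endothelial and mural markers were called lower for 4 of 5 and 3 of 5 genes, and 3 of 3 tested somatostatin interneuron markers were called higher. Mitochondrially encoded genes held 18.2 ± 1.96% of TPM in miR-130a libraries and 14.7 ± 1.48% in control libraries (SD, n = 5 each). The part of these differences in the channel values was not tested. In bulk tissue, fewer cells of a type and less RNA per cell cannot be told apart.

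Control library 9 stood apart from the other libraries. It had the lowest level of all 10 libraries for 16 of the 32 channel genes tested, and its excitatory marker sum of 1856 TPM and inhibitory marker sum of 165.5 TPM were also the lowest. MiR-130a library 17 had the minimum for 8 channel genes. Limma's array weights are lower for a library that departs more from its group. They were 0.301 for control library 9 and 0.542 for miR-130a library 17, and 0.795 to 1.81 for the other libraries. Results that depend on these libraries are given below with and without them.

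Of the 40 genes, 32 passed the filter and were tested, and 3 of these were called: Cacng5 and Cacna1s fell and Cacng6 rose in miR-130a libraries. Cacna1s passed the filter only through its control level, since its miR-130a mean was 0.92 TPM. Cacng5 encodes a TARP, Cacna1s the L-type channel pore of skeletal muscle, and Cacng6 a relative of the γ subunit of skeletal muscle channels. None of the subunits that dominate cortical sodium and calcium currents was called. Over all genes tested, 13.5% were called, 11.3% lower and 2.19% higher, so that 3 of 32 channel genes (9.38%) is not above that background. With median-ratio scaling or quantile normalization the split of channel genes was 1 lower (Cacng5) and 2 higher (Cacna2d1 and Cacng6), and higher calls made up 42.0% and 50.6% of all calls, against 16.3% on the TPM as deposited. Unadjusted limma p-values were under 0.05 for 6 of the 32, beside 4455 of all 15680 genes tested. Groups did not overlap for Cacng5 and Cacng6, 2 of 32, whereas they did not overlap for 11.3% of all genes tested.

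**Figure D1:**
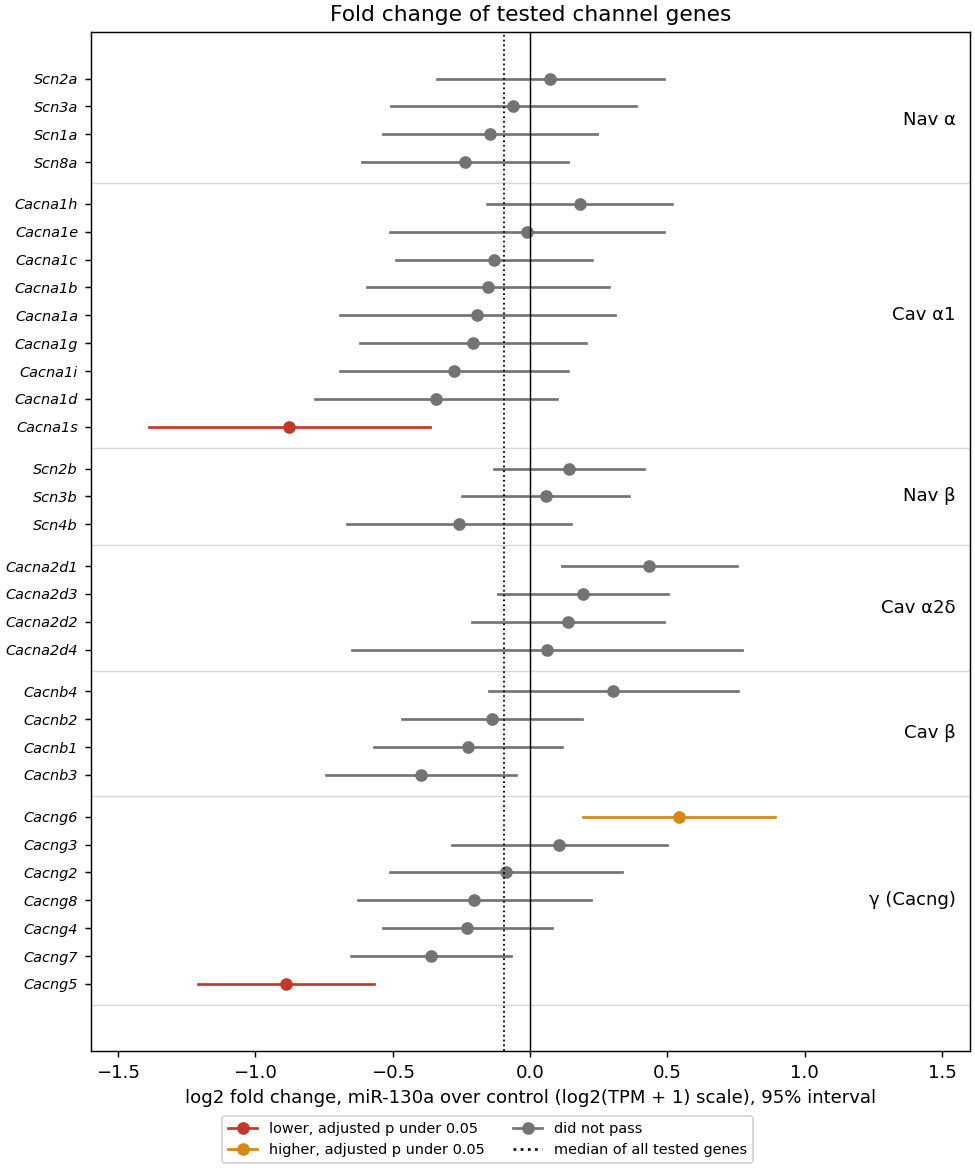
Log2 fold change of tested channel genes, miR-130a over control on the log2(TPM + 1) scale, with its 95% interval from limma (5 libraries in each group), ordered by family from the pore-forming Nav α and Cav α1 genes to the auxiliary genes. The intervals of Cacng5 and Cacna1s lie left of 0 and that of Cacng6 right of it in colour, and the dotted line marks the median of all genes tested, -0.09.

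Among 13 pore-forming genes tested 1 was called (7.69%), which is Cacna1s with the limit just given, and among 19 auxiliary genes 2 were called (10.5%). The median fold change was -0.15 for pore-forming and -0.09 for auxiliary genes, beside -0.09 for all genes tested. Without the γ family, most of which is better known for AMPA receptors, the 12 auxiliary genes left had a median of 0.06, and none was called. Point estimates were negative for 11 of the 13 pore-forming and 10 of the 19 auxiliary genes, beside 9973 of all 15680 genes tested. After quantile normalization, which moved the median of all genes to 0.05, only 6 of the 13 pore-forming estimates were negative. Summed over a library, the pore-forming genes held 253.9, 268.3, 295.9, 199.1 and 283 TPM in miR-130a libraries 13, 14, 15, 17 and 18, against 333.6, 307.5, 355.9, 277.5 and 181.5 TPM in control libraries 3, 4, 5, 7 and 9. The auxiliary genes held 1263 ± 62.6 TPM in miR-130a libraries and 1462 ± 299 TPM in control libraries (SD, n = 5 each). Both sums overlapped between the groups, and control library 9 had the lowest of each. The ratio of auxiliary to pore-forming TPM was 4.95 ± 0.82 in miR-130a libraries and 5.09 ± 0.60 in control libraries (SD, n = 5 each).

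**Figure D2:**
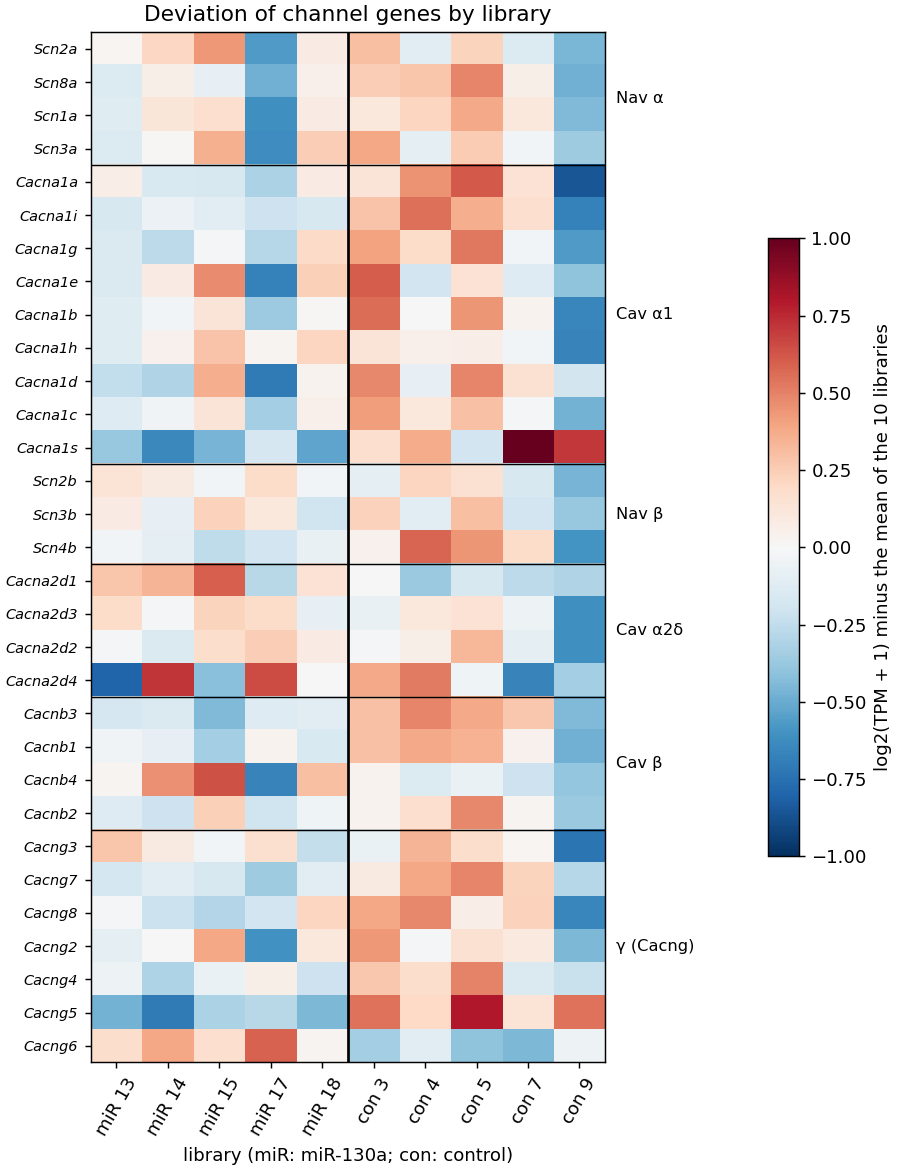
Level of tested channel genes in each library, as log2(TPM + 1) minus the gene's mean over the 10 libraries, with miR-130a libraries left of control libraries. Control library 9 is the darkest low column, with the minimum of 16 of the 32 genes tested, and Cacng5 is the row in which all miR-130a libraries are below all control libraries.

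The sodium channel pores of cortical neurons had the same order of mean abundance in both groups, and none was called. In control library 4, Scn8a was above Scn2a. Scn2a and Scn8a, the α subunits of the excitatory neuron axon, were the most abundant, followed by Scn1a, which is prominent in fast-spiking interneurons, and Scn3a, which is best known from the developing brain. Scn2a was at 50.2, 57.4, 67.2, 33.1 and 52.5 TPM in miR-130a libraries 13, 14, 15, 17 and 18, against 61.1, 45.9, 57.9, 44.8 and 35.8 TPM in control libraries 3, 4, 5, 7 and 9. The highest value was in miR-130a library 15 and the lowest in miR-130a library 17, so that the miR-130a range enclosed the control range (log2 fold change 0.07, SE 0.19, adjusted p = 0.845). Scn8a was at 35.7, 40.9, 37.0, 27.9 and 40.8 TPM in miR-130a libraries, in the same library order, against 46.8, 48.0, 55.6, 41.0 and 27.9 TPM in control libraries. All but control library 9 were above every miR-130a library (log2 fold change -0.24, SE 0.17, adjusted p = 0.403), and without it the gene was called at -0.39 (adjusted p = 0.0493). Scn1a averaged 17.04 ± 3.56 TPM in miR-130a libraries and 18.9 ± 3.87 TPM in control libraries (SD, n = 5 each, log2 fold change -0.15, adjusted p = 0.647). Scn3a averaged 3.60 ± 1.13 TPM in miR-130a libraries and 3.75 ± 0.962 TPM in control libraries (SD, n = 5 each, log2 fold change -0.06, adjusted p = 0.886). Within each library, the Scn2a to Scn8a ratio was 1.42 ± 0.238 in miR-130a libraries and 1.14 ± 0.152 in control libraries (SD, n = 5 each), and its ranges of 1.19 to 1.81 and 0.956 to 1.31 overlapped.

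The other 6 Nav α genes were below the filter. Scn7a, an atypical family member known as a sodium-level sensor, averaged 0.80 TPM in miR-130a libraries and 0.772 TPM in control libraries. Scn4a, the skeletal muscle pore, and Scn9a, Scn10a and Scn11a, which are typical of peripheral sensory neurons, reached at most 0.46 TPM in any library.

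Among the calcium channel pores, only Cacna1s was called, and it was the least abundant of those tested. It was at 0.99, 0.65, 0.87, 1.30 and 0.79 TPM in miR-130a libraries 13, 14, 15, 17 and 18, against 1.90, 2.35, 1.26, 4.71 and 3.21 TPM in control libraries 3, 4, 5, 7 and 9. The groups overlapped only in that miR-130a library 17 exceeded control library 5, and control libraries 7 and 9 were the highest (log2 fold change -0.88, SE 0.23, adjusted p = 0.0294). The call was lost in 10 of 21 alternatives, among them median-ratio scaling (adjusted p = 0.0539) and leaving out control library 7 (-0.70, adjusted p = 0.0644). Without both control libraries 7 and 9 the fold change was -0.55 (adjusted p = 0.0725).

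Several marker sums were also lower on average in the miR-130a group and highest in control libraries 7 and 9. They were those of lymphoid and border myeloid cells, microglia, endothelium, and meninges and choroid plexus. Within the groups, the other libraries followed the order of Cacna1s only in part. Among miR-130a libraries, Cacna1s and the microglial sum were both lowest in library 14 and highest in library 17. The endothelial sum was also highest in library 17. By contrast, the meningeal and choroid plexus sum was lowest in library 17, and the lymphoid and border myeloid sum was highest in library 15. The 6 markers of lymphoid and border myeloid cells summed to 3.36 to 10.1 TPM in miR-130a libraries, against 21.2, 10.7, 11.6, 51.5 and 64.8 TPM in control libraries 3, 4, 5, 7 and 9, and 2 of the 5 tested were called lower. The part of any of these cell types in the Cacna1s result was not tested. The 5 skeletal muscle markers summed to 9.28 to 11.7 TPM in miR-130a libraries and 6.25 to 9.10 TPM in control libraries, nearly all of it Acta1. The defining Ckm was at 0 in all miR-130a libraries and at most 0.23 TPM in control libraries, and Ttn was at most 0.01 TPM in either group. The gene Cacna1s lies at chr1:136052750-136119822 in GRCm38 and overlaps the transcript model Gm37014 on its own strand and Gm37759 on the other. Reads may be shared with Gm37014, and with Gm37759 only if strand was not used when reads were assigned.

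Cacna1a and Cacna1i were not called with all 10 libraries. Cacna1a, the P/Q-type pore of fast transmitter release, was at 50.3, 43.2, 42.9, 38.3 and 50.8 TPM in miR-130a libraries 13, 14, 15, 17 and 18, against 52.5, 66.0, 73.9, 53.3 and 26.1 TPM in control libraries 3, 4, 5, 7 and 9. As for Scn8a, every control library but 9 was above every miR-130a library (log2 fold change -0.19, SE 0.23, adjusted p = 0.638), and without control library 9 it was called at -0.43 (adjusted p = 0.0325). Cacna1i, a T-type pore that opens at low voltage, was at 21.6 to 23.9 TPM in miR-130a libraries, against 30.8, 37.0, 32.4, 28.3 and 15.3 TPM in control libraries (log2 fold change -0.28, adjusted p = 0.377), and again only control library 9 was below the miR-130a range. Without that library Cacna1i was called at -0.48 (adjusted p = 0.00517).

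The remaining Cav α1 genes were also not called with all 10 libraries. The T-type genes Cacna1g and Cacna1h averaged 17.3 ± 2.56 and 14.4 ± 1.72 TPM in miR-130a libraries, and 20.7 ± 5.87 and 12.8 ± 2.71 TPM in control libraries (SD, n = 5 each), with log2 fold changes of -0.21 and 0.18. Cacna1e, the R-type pore, averaged 17.1 ± 5.05 TPM in miR-130a libraries and 17.1 ± 5.28 TPM in control libraries (SD, n = 5 each), with an interval of -0.51 to 0.49 around its fold change of -0.01. Cacna1b, the N-type presynaptic pore, averaged 13.1 ± 1.73 TPM in miR-130a libraries and 15.3 ± 4.89 TPM in control libraries (SD, n = 5 each, log2 fold change -0.15). The L-type genes, which couple activity to gene expression, gave -0.34 for Cacna1d, at 9.52 ± 2.92 TPM in miR-130a libraries and 12.2 ± 2.82 TPM in control libraries, and -0.13 for Cacna1c, at 9.44 ± 1.27 TPM in miR-130a libraries and 10.6 ± 2.57 TPM in control libraries (SD, n = 5 each). Adjusted p-values of these 6 genes were 0.300 to 0.982. Cacna1f, the L-type pore of photoreceptors, was below the filter at no more than 0.17 TPM in any library.

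**Figure D3:**
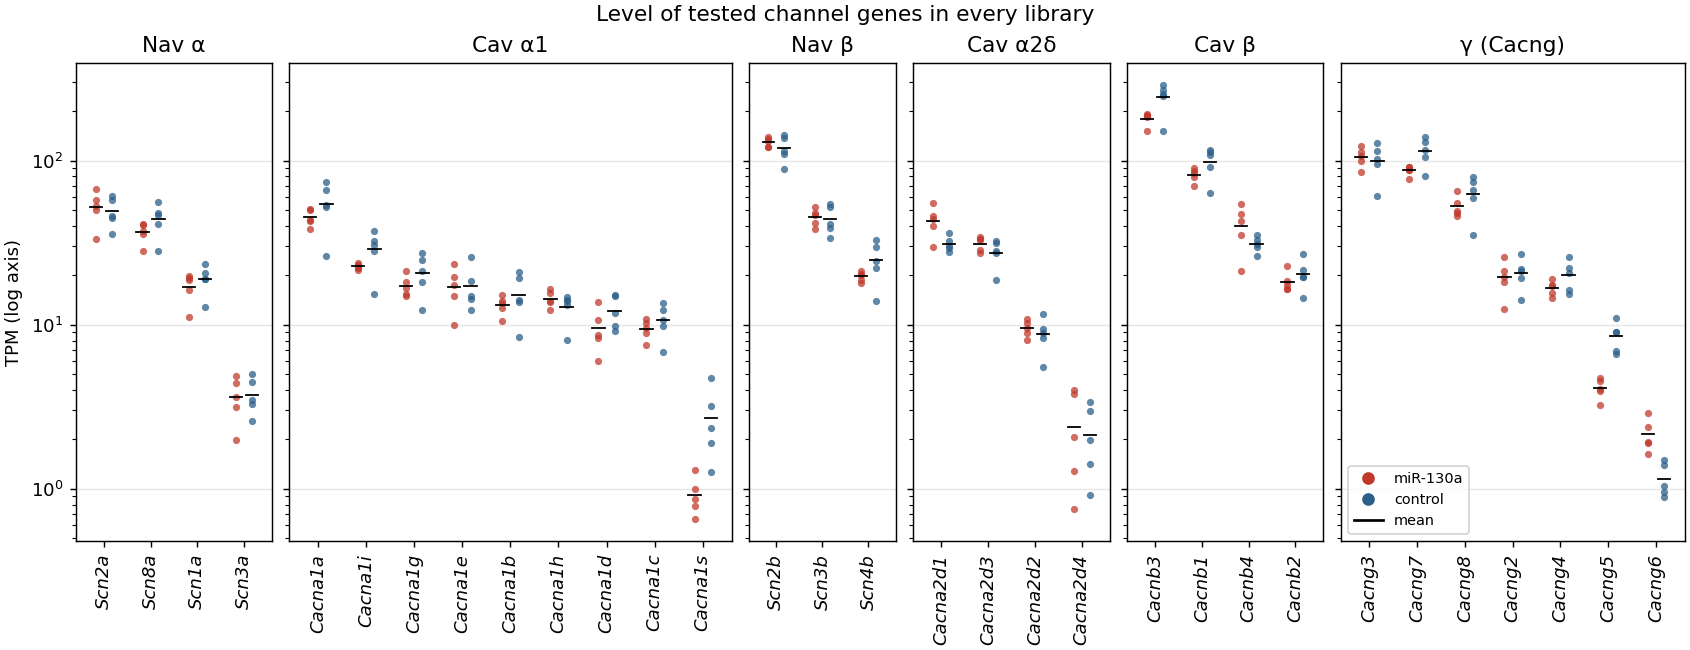
TPM of the channel genes in each library on a log axis, with miR-130a libraries in red and control libraries in blue, grouped by family. Cacnb3 is the most abundant gene plotted, at 180 TPM on average in miR-130a libraries and 242 TPM in control libraries, and the colours overlap for nearly all genes.

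None of the Nav β genes was called. Scn4b, linked to resurgent sodium current, was at 17.9 to 21.2 TPM in miR-130a libraries, against 22.3, 32.8, 29.7, 24.6 and 13.9 TPM in control libraries (log2 fold change -0.26, adjusted p = 0.405), with control library 9 the one control not above the miR-130a range, and without it the gene was called at -0.44 (adjusted p = 0.0219). Scn2b, which is joined to the pore by a disulfide bond, averaged 129 ± 8.49 TPM in miR-130a libraries and 119 ± 21.9 TPM in control libraries (SD, n = 5 each, log2 fold change 0.14, adjusted p = 0.503). Scn3b, whose protein binds the pore without a covalent bond, averaged 45.3 ± 5.32 TPM in miR-130a libraries and 44.0 ± 8.97 TPM in control libraries (SD, n = 5 each, log2 fold change 0.06, adjusted p = 0.839).

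The α2δ genes were the family whose point estimates were all positive, though none was called. This held for 4 of 4 genes under each of the 4 other scalings. It held for 3 of 4 without control library 7, control library 9, miR-130a library 14 or miR-130a library 17, and for 2 of 4 without control libraries 7 and 9 (family median -0.0078) or without control library 9 and miR-130a library 17 together (0.00023). Cacna2d1, whose protein is a target of gabapentin, was at 43.9, 46.0, 55.3, 29.6 and 40.1 TPM in miR-130a libraries 13, 14, 15, 17 and 18, against 36.0, 27.8, 32.3, 30.1 and 29.2 TPM in control libraries 3, 4, 5, 7 and 9. Each miR-130a library except 17 was above all control libraries (log2 fold change 0.43, SE 0.15, adjusted p = 0.0725). It was called in 6 of 22 alternatives, including median-ratio scaling (0.55, adjusted p = 0.0161) and leaving out miR-130a library 17 (0.56, adjusted p = 0.0133). Cacna2d3 averaged 31.2 ± 3.08 TPM in miR-130a libraries and 27.5 ± 5.38 TPM in control libraries (SD, n = 5 each, log2 fold change 0.19, adjusted p = 0.409). Cacna2d2, the other gabapentin-binding member, averaged 9.54 ± 1.11 TPM in miR-130a libraries and 8.74 ± 2.17 TPM in control libraries (SD, n = 5 each, log2 fold change 0.14, adjusted p = 0.628). Cacna2d4, best known from the retina, ranged from 0.75 to 4 TPM in miR-130a libraries and from 0.92 to 3.37 TPM in control libraries.

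The summed α2δ level relative to the summed Cav α1 level was described within each library, since a ratio does not depend on the library's total. It was 0.588, 0.593, 0.612, 0.623 and 0.478 in miR-130a libraries 13, 14, 15, 17 and 18, against 0.377, 0.380, 0.365, 0.400 and 0.539 in control libraries 3, 4, 5, 7 and 9. Only control library 9 overlapped the miR-130a range, being above miR-130a library 18. The corresponding Cav β to Cav α1 ratio was 2.17 ± 0.284 in miR-130a libraries and 2.28 ± 0.201 in control libraries (SD, n = 5 each). These ratios were formed with the values known and were not tested. Transcript GC content was 40.7% for Cacna2d1 and 58.4% for Cacna1a, the most abundant genes of the α2δ and Cav α1 sums. The part of base composition in the ratios was not tested.

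The Cav β genes split into Cacnb4 with a positive estimate and the other three with negative ones, none of them called. Cacnb3, the most abundant calcium channel subunit here, was at 183.2, 185.9, 151.4, 188.7 and 191.1 TPM in miR-130a libraries 13, 14, 15, 17 and 18, against 253.3, 289.4, 268.8, 248 and 151.8 TPM in control libraries 3, 4, 5, 7 and 9. All control libraries but 9 were above every miR-130a library (log2 fold change -0.40, SE 0.16, adjusted p = 0.122), and without control library 9 it was called at -0.56 (adjusted p = 0.00303). Cacnb4, whose loss causes the lethargic mouse phenotype, was at 35.0, 47.5, 54.0, 21.3 and 42.5 TPM in miR-130a libraries, against 35.1, 31.2, 32.7, 29.6 and 26.1 TPM in control libraries. It was spread widely, with both the lowest and the highest value in miR-130a libraries (log2 fold change 0.30, SE 0.21, adjusted p = 0.377), and without miR-130a library 17 it was called at 0.51 (adjusted p = 0.0349). Cacnb1 averaged 82.0 ± 7.96 TPM in miR-130a libraries and 98.1 ± 21.8 TPM in control libraries (SD, n = 5 each, log2 fold change -0.23, adjusted p = 0.378). Cacnb2 averaged 18.3 ± 2.58 TPM in miR-130a libraries and 20.5 ± 4.52 TPM in control libraries (SD, n = 5 each, log2 fold change -0.14, adjusted p = 0.596).

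The γ family held the clearest change. Cacng5 encodes a type II TARP, a class that alters AMPA receptor gating. It was at 3.96, 3.23, 4.53, 4.70 and 4.06 TPM in miR-130a libraries 13, 14, 15, 17 and 18, against 9.04, 6.90, 11.0, 6.59 and 9.02 TPM in control libraries 3, 4, 5, 7 and 9. Every miR-130a library was below every control library, and the means were 4.10 ± 0.575 TPM in miR-130a libraries and 8.52 ± 1.82 TPM in control libraries (SD, n = 5 each). The log2 fold change was -0.89 (SE 0.15, adjusted p = 0.00333), and it stayed past the threshold in 22 of 22 alternatives, from -1.02 to -0.69. Control library 9, low for so many channel genes, was not low for Cacng5. The gene lies at chr11:107874605-107915055 in GRCm38 and overlaps no other annotated gene.

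Cacng6 rose, at a low level. It was at 1.92, 2.38, 1.91, 2.89 and 1.64 TPM in miR-130a libraries 13, 14, 15, 17 and 18, against 1.04, 1.40, 0.95, 0.89 and 1.49 TPM in control libraries 3, 4, 5, 7 and 9. The groups did not overlap, but miR-130a library 18 and control library 9 were close (log2 fold change 0.54, SE 0.16, adjusted p = 0.0442). The call was lost in 10 of 21 alternatives, including 8 of the 10 that left out 1 library, where adjusted p reached 0.106. Cacng6 lies in a cluster on chromosome 7 with Cacng7 and Cacng8, at chr7:3424195-3435667 in GRCm38, and its neighbours did not move with it. Cacng7, the other type II TARP, was at 77.0 to 91.5 TPM in miR-130a libraries, against 104.8, 129.1, 138.8, 115.2 and 80.7 TPM in control libraries (log2 fold change -0.36, adjusted p = 0.0992). Cacng8, a type I TARP prominent in the hippocampus, averaged 52.7 ± 7.86 TPM in miR-130a libraries and 62.5 ± 17 TPM in control libraries (SD, n = 5 each, log2 fold change -0.20, adjusted p = 0.540).

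The other TARPs, which escort AMPA receptors to synapses, were not called. Cacng3, a type I TARP, averaged 105 ± 13.9 TPM in miR-130a libraries and 100 ± 25.2 TPM in control libraries (SD, n = 5 each, log2 fold change 0.11, adjusted p = 0.752). Cacng2, stargazin, averaged 19.5 ± 4.86 TPM in miR-130a libraries and 20.7 ± 4.60 TPM in control libraries (SD, n = 5 each, log2 fold change -0.09, adjusted p = 0.816). Cacng4, which neighbours Cacng5 on chromosome 11, ranged from 14.5 to 18.9 TPM in miR-130a libraries and from 15.4 to 26.0 TPM in control libraries. Cacng1, the skeletal muscle γ subunit, was at 0 in all libraries except miR-130a library 17, at 0.08 TPM.

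**Figure D4:**
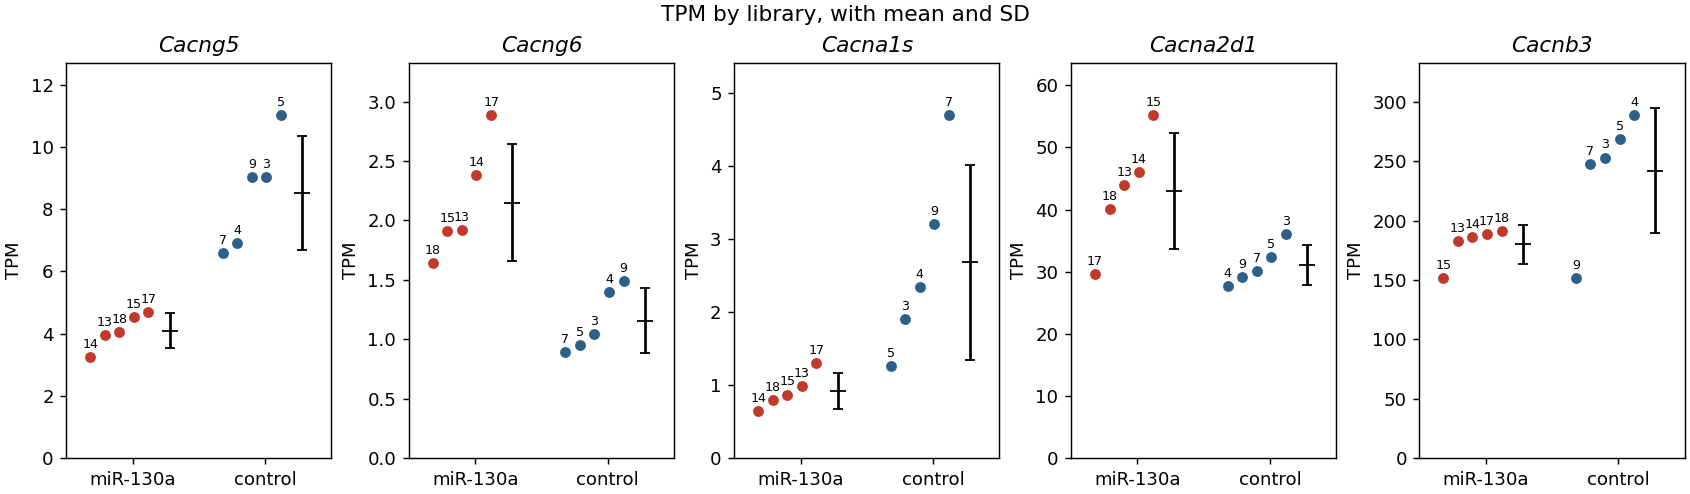
TPM in each library, labelled by its number, for the 3 called genes and for Cacna2d1 and Cacnb3, with the mean and SD of each group beside the points and miR-130a left of control. Cacng5 and Cacng6 do not overlap between the groups, Cacna1s overlaps by 1 library, miR-130a library 17 is low for Cacna2d1, and control library 9 lies at 151.8 TPM for Cacnb3, within the miR-130a range.

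How many channel genes were called depended on control library 9. Without it 11 of 32 were called lower (34.4%), where 18.6% of all genes tested were, and 1 higher (3.12%), where 3.18% of all genes were. Among the 11 were the pore-forming Scn8a, Cacna1a, Cacna1i and Cacna1s, the Nav β gene Scn4b, the Cav β genes Cacnb1 and Cacnb3, and the γ genes Cacng5, Cacng7 and Cacng8, and Cacng6 was the one higher. The pore-forming genes then had a median of -0.34 and 4 of 13 called lower, the auxiliary genes -0.21 and 7 of 19, beside a median of -0.13 for all genes. Without control libraries 7 and 9 together, 10 of 32 were called lower, where 15.6% of all genes tested were, and 0 higher by limma, with 1 (Cacng6) higher at an unadjusted p under 0.05. The part of the low neuronal marker sums of control library 9 in these counts was not tested.

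The spread between libraries of 1 group followed base composition in part. Over the 32 tested genes, the fold change and the GC content of the longest annotated coding transcript gave Pearson's r of -0.37 and Spearman's rho of -0.45, and over 13343 genes tested that could be matched, -0.21 and -0.31. These are descriptions across genes, which share libraries and are not independent replicates. The 16 genes with a GC content of 40.5% to 52.6% had a median log2 fold change of -0.04, and the 16 with 52.9% to 65.1% a median of -0.22. The libraries of the miR-130a group also differed among themselves with GC content. The deviation of library 15 from its group gave r of -0.72 with GC content, and that of library 17 gave 0.53. Control libraries also deviated, with r of 0.60 for control library 4 and -0.42 for control library 9. The remaining libraries of both groups gave -0.25 to 0.21. Over the 13343 genes, r was -0.47 for miR-130a library 15 and 0.50 for miR-130a library 17. It was 0.32 for control library 4 and -0.20 for control library 9. With transcript length, Spearman's rho of the deviations of the 32 channel genes ranged from -0.59 (miR-130a library 17) to 0.60 (miR-130a library 15). For the fold change it was 0.10. The 5 tested genes with the lowest GC content (Cacnb4, Cacna2d1, Scn3a, Scn1a and Scn2a, at 40.5% to 43.4%) were each highest in library 15 and lowest in library 17 among the miR-130a libraries. The part of base composition or transcript length in the fold changes was not tested.

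**Figure D5:**
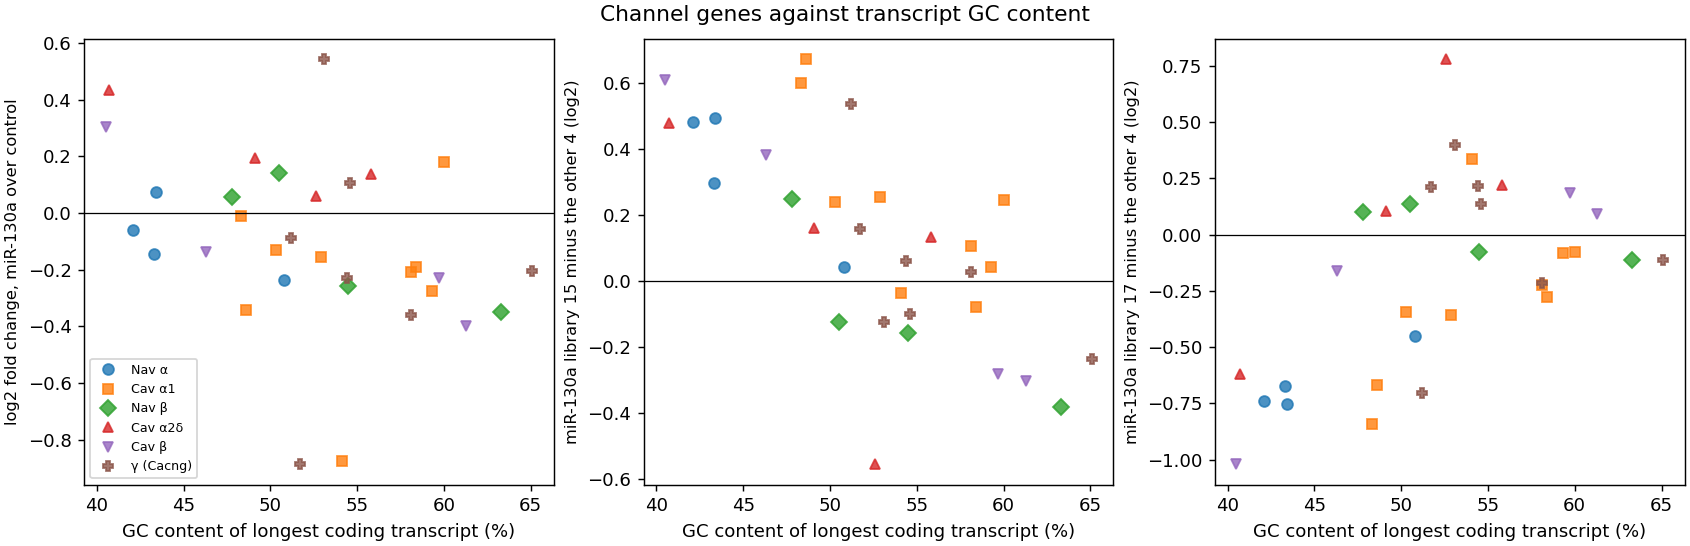
Log2 fold change (miR-130a over control) of the 32 tested channel genes, and the deviation of miR-130a libraries 15 and 17 from their group, against the GC content of the longest transcript in percent. Fold changes decline with GC content (r = -0.37), as does the deviation of library 15 (r = -0.72), and that of library 17 rises (r = 0.53).

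Few channel genes carry a site for the overexpressed microRNA. Its mature sequence is from RefSeq, with GRCm38.p6 coordinates chr2:84741116-84741137 on the minus strand. It is shown with the seed (bases 2 to 8) in capitals, since each site holds the complement of all or most of the seed.
mmu-miR-130a-3p: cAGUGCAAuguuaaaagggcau
Sites were the letters TTGCACT or TGCACTA on the sense strand of the longest annotated 3′ UTR of each gene, and the letters TTGCACTA where both overlap. The last A of TGCACTA and TTGCACTA is part of the motif searched and not of the complement. They were present in 3 of the 32 tested channel genes (9.38%), and in 2119 of 13268 tested genes with a 3′ UTR (16%). The full TTGCACTA was in no channel gene and in 2.45% of all. The 3 genes are pore-forming, out of 13, and none of 19 auxiliary genes had a site. The UTRs of the tested channel genes were longer, with a median of 2202 bases, against 1225 bases for all.

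The sites in the tested pore genes are given with the letters of the motif in capitals, in GRCm38, sense strand.
Cacna1e at chr1:154397926-154397955: ctcctcaccagctcTTGCACTttggctgcc
Cacna1e at chr1:154391656-154391685: tggagaaacacttaaTGCACTAagtatgtt
Scn3a at chr2:65458682-65458711: ttttttaaatcctgcTGCACTAaaggtatc
Scn8a at chr15:101045677-101045706: agaaatgtctttccTTGCACTtgcttctgg
Cacna1e and Scn3a are on the minus strand and Scn8a on the plus strand. Their log2 fold changes were -0.01 for Cacna1e, -0.06 for Scn3a and -0.24 for Scn8a, and none was called. The untested Scn7a also has a TTGCACT. The called genes Cacng5, Cacna1s and Cacng6 have neither motif in this window. A match or its absence describes these letters and not binding.

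Genes that work with these channels were examined as 4 lists, beside a share of 13.5% called among all genes tested. None of 16 sodium channel partners was called, and the lowest p was that of Cntn1, an adhesion molecule, at 102 ± 11.8 TPM in miR-130a libraries and 78.2 ± 12.1 TPM in control libraries (SD, n = 5 each, log2 fold change 0.38, adjusted p = 0.0636). Of 15 tested calcium channel partners, 1 was called lower. This was Lrp1, an endocytic receptor that also handles α2δ proteins, at 126 ± 19.6 TPM in miR-130a libraries and 179 ± 21.3 TPM in control libraries (SD, n = 5 each, log2 fold change -0.50, adjusted p = 0.0221), and it is expressed in glia as well as neurons. Of 5 genes of the NALCN sodium leak channel, the pore gene Nalcn was not called, at 20.5 ± 3.05 TPM in miR-130a libraries and 17.9 ± 2.95 TPM in control libraries (SD, n = 5 each). Its auxiliary gene Nalf2 fell to 3.75 to 5.73 TPM in miR-130a libraries, against 6.59 to 12.5 TPM in control libraries, without overlap (log2 fold change -0.91, adjusted p = 0.00549). None of 12 potassium channels of the initial segment and of repolarization was called. The median fold change was -0.01 for sodium channel partners, -0.08 for calcium channel partners, -0.01 for the leak channel genes and 0.01 for the potassium channels, beside -0.09 for all genes tested.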

How the data were processed

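Per the labels' protocols, total RNA (integrity number 6.5 or above) was made into stranded poly(A) libraries. The submitters' processing notes name HISAT2, RSEM, fastp and DESeq2 and the build GRCm39; versions and roles are not given in the sources used here. The authors deposited TPM per gene and library, without counts, so depth is unknown, count models were not used and no counting interval was computed. TPM shares a fixed total, so a large change in some genes shifts the rest. The authors' 2 mean columns were left out, and library columns were matched to libraries by sample title.

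Genes averaging 1 TPM or more across the 10 libraries were compared as log2(TPM + 1) with limma 3.58.1 (trend, 2-sided, 5 against 5 libraries, no covariate) in R 4.3.3 with data.table (version 1.17.8), with Benjamini-Hochberg adjustment over 15680 genes and a threshold of 0.05. The script was checked on simulated data. The library numbers run in separate blocks by group, so that a processing difference that followed them cannot be told apart from the virus. No 2 libraries held identical values, and their pairwise correlations were 0.904 to 0.977.

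The members, the partner and marker lists and the tests were chosen with earlier results of these data known. Full statistics are given for called members and for preselected abundant or well-known ones, and other members by level and range. From each partner list the called genes, or the gene of lowest p, are named. Some genes that these rules select are not reported here. Cacng7, Nalcn and the muscle markers were singled out after their values were seen. Sites were searched in the longest GENCODE M21 3′ UTR, and transcript GC content taken from the same annotation, of GRCm38; this build differs from that of the processing notes, so genes were matched by identifier. The search and figures used Python 3.11.15, numpy 2.4.6, pandas 2.3.3 and matplotlib 3.10.9. Alternatives were other pseudocounts (0.1 and 0.5), filters, scalings, variance settings and sets of libraries, one at a time; leaving out control library 9 and miR-130a library 17 together was chosen after seeing the data.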

Additional observations from a re-analysis of the deposited data

Results flagged for a closer look

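In 58 groups of 5 libraries (29 named genes, both groups), 2 held a library whose distance to its nearest neighbour exceeded 0.71 of the whole range. Chance gives this for about 1 in 20 groups. Cacna1h, the T-type pore, was at 8.06 TPM in control library 9, and the next control library was at 13.1 TPM. Cacnb3, the main Cav β transcript, was at 151.4 TPM in miR-130a library 15, and the next miR-130a library was at 183.2 TPM.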

How the results depend on the processing

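No paired analysis was possible because the library numbers of the groups are not shared. Cacng5 kept its direction and call in all 22 alternatives, while Cacng6 and Cacna1s kept their direction in the 21 alternatives that tested them and lost the call in 10 each. The median of the pore-forming genes, -0.15, ranged from -0.41 without control libraries 7 and 9 to 0.02 with quantile normalization. That of the auxiliary genes, -0.09, ranged from -0.26 to 0.07 under the same settings, and was 0.06 over the 12 genes left without the γ family. Of the 15680 genes, 2110 were called. Without a filter 1302 were called, with array weights 3840 and without control library 9 and miR-130a library 17 together 3397. Leaving out 1 library gave 1254 to 3421 called, 1 to 11 channel genes lower and 0 to 2 higher. Channel genes called lower numbered 2, but 1 without a filter, with a minimum of 5 TPM, with median-ratio scaling or with quantile normalization, 5 with array weights, 10 without control libraries 7 and 9, and 8 without control library 9 and miR-130a library 17. Channel genes called higher numbered 1, but 0 without a filter, with a minimum of 5 TPM or without control libraries 7 and 9, 2 with median-ratio scaling, quantile normalization, rescaling to protein-coding genes or array weights, and 3 without control library 9 and miR-130a library 17. The minimum of 5 TPM removes Cacng6 and Cacna1s by construction; for the other changes the cause was not tested. Of all calls, 16.3% were higher, but 42.0% with median-ratio scaling and 50.6% with quantile normalization, which moved the median of all genes to 0.01 and 0.05.

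Log2 fold changes that turned sign were all of uncalled genes. Cacna2d4, given by its range only, was negative in 6 of 21 alternatives and lowest at -0.26 without control libraries 7 and 9. For genes with full statistics the values follow. With median-ratio scaling they were 0.029 for Scn3a, 0.098 for Cacna1e and 0.024 for Cacng2. With quantile normalization they were 0.024 for Scn1a, 0.14 for Scn3a, 0.025 for Cacna1b, 0.049 for Cacna1c, 0.16 for Cacna1e, 0.024 for Cacnb2 and 0.071 for Cacng2. Without mitochondrially encoded genes Cacna1e was at 0.046, and with array weights Scn3b at -0.024. Without control libraries 7 and 9 they were -0.10 for Scn2a, -0.021 for Scn2b, -0.11 for Scn3b, -0.053 for Cacna2d2 and -0.095 for Cacng3. Without control library 9 and miR-130a library 17 they were -0.051 for Scn3b, 0.054 for Cacna1e, -0.042 for Cacna2d2 and -0.091 for Cacng3. With 1 library left out, Scn2a ranged from -0.032 to 0.22, Scn3a from -0.16 to 0.088, Scn3b from -0.031 to 0.14, Cacna1e from -0.13 to 0.16, Cacng2 from -0.21 to 0.053 and Cacng3 from -0.064 to 0.20.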

Other observations

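Within the Cav β family, the mean shares of Cacnb4 and Cacnb3 differed between the groups, and the ranges of both shares overlapped. Cacnb3 held 56.1 ± 3.25% of Cav β TPM in miR-130a libraries and 61.7 ± 1.86% in control libraries, and Cacnb4 held 12.6 ± 4.22% in miR-130a libraries and 8.10 ± 1.31% in control libraries (SD, n = 5 each). The Cacnb4 to Cacnb3 ratio ranged from 0.113 to 0.357 in miR-130a libraries and from 0.108 to 0.172 in control libraries. The lowest miR-130a value was in library 17 and the highest in library 15. Transcript GC content was 40.5% for Cacnb4 and 61.3% for Cacnb3, and the part of base composition in this ratio was not tested. Shares of the Nav α sum were 15.4 ± 0.414% for Scn1a in miR-130a libraries and 16.3 ± 1.32% in control libraries, and 46.9 ± 2.82% for Scn2a in miR-130a libraries and 42.2 ± 2.96% in control libraries (SD, n = 5 each). These values were formed with the levels known and were not tested.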
